A study of Mus musculus with 12 samples.

Results

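The later steps of mitochondrial beta-oxidation, and the auxiliary steps that unsaturated fatty acids need, were followed through 10 genes in the mouse heart: Ech1, Eci1, Eci2, Decr1, Echs1, Hadh, Hadha, Hadhb, Acaa2 and Hsd17b10. They were chosen by enzyme function, with each symbol matched to its Ensembl identifier, and all 10 were found among the 26921 genes of the count table. RNA-seq was performed on left ventricle from 16-week-old mice. WT mice (n = 6) carried Gch1 flox/flox without Cre. The cmGch1 KO mice (n = 6) carried Gch1 flox/flox with a heterozygous Cre transgene under the α-myosin heavy chain promoter, which is active in cardiomyocytes. Gch1 encodes GTP cyclohydrolase I, the entry enzyme of tetrahydrobiopterin synthesis. Both groups carried the floxed allele, the controls were littermates and no library with Cre alone was analysed here, so an effect of Cre cannot be told apart from that of the deletion. The comparison asks whether loss of Gch1 from cardiomyocytes came with other levels of the transcripts that encode the enzymes completing fatty acid oxidation.

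In beta-oxidation, an acyl-CoA dehydrogenase makes an enoyl-CoA. A hydratase then adds water, a hydroxyacyl-CoA dehydrogenase oxidises the product, and a thiolase releases acetyl-CoA. Double bonds already present in unsaturated acids cannot pass through this cycle until isomerases and a reductase have moved or removed them. The adult heart takes most of its energy from this pathway, and cardiomyocytes are dense with the mitochondria that hold it.

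Libraries held between 19921398 and 37917806 counts, and the lowest count of any of the 10 genes in any library was 2311, for Hsd17b10. Levels are given in cpm, counts per 1000000 counts of the library, scaled by TMM, a normalization between libraries. The deleted gene, Gch1, had a mean of 10.7 cpm (SD 0.974) over the WT libraries and of 5.48 cpm (SD 0.855) over the knockout ones, with no overlap (log2 fold change −0.96, SE 0.11, adjusted p = 0.000688 by edgeR's quasi-likelihood test). In cmGch1 KO replicates 2 and 3, 4 Y-linked genes had 0 counts and Xist, the RNA that coats the inactive X chromosome, stood at 86.7 and 99.1 cpm. Xist stayed at or below 0.234 cpm in each of the remaining 10, where the Y-linked genes summed to 166.9 to 192.3 cpm. The labels do not give the sex of the mice. Every WT library was among these 10, so sex-linked expression and genotype are partly confounded. Mitochondrially encoded genes held 14.9% and 16.1% of the counts in that high-Xist pair and 18.3% to 22.9% elsewhere. The libraries also differed in the balance of short and long transcripts. A length index was taken as the median deviation of 1779 genes with transcripts of up to 1500 bases minus that of 3760 genes with transcripts of at least 4000 bases. Values of 0.16 to 0.48 (log2) were found in WT replicates 1, 3 and 4 and in cmGch1 KO replicates 1 and 2. For cmGch1 KO replicate 3 the index was just positive and rounded to 0.00. The remaining 6 libraries, 3 of each genotype, lay at −0.30 to −0.20.

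All 10 genes had a negative log2 fold change in cmGch1 KO against WT, and 0 of the 10 passed a false discovery rate (FDR) of 0.05 in edgeR's quasi-likelihood test. That count was also 0 by DESeq2 and by limma on the authors' normalized values, but it was 3 (Ech1, Decr1 and Hadh) in edgeR without cmGch1 KO replicate 1. That replicate was the highest knockout library for 9 of the 10 genes, so smaller p-values without it follow partly from the values tested. The median log2 fold change of the 10 genes was −0.20, against −0.01 over all 11225 genes tested. Among all tested genes, 53.3% had a negative log2 fold change and 0.445% were lower at the FDR threshold. At an unadjusted p under 0.05, 5 of the 10 genes were lower (Ech1, Eci1, Decr1, Hadh and Acaa2), against 4.51% of all tested genes, and the 95% intervals of these 5 lay below 0. Without the high-Xist pair this count was 2 (Eci1 and Hadh), and without cmGch1 KO replicate 1 it was 9. The share of all tested genes lower at that p is not given here for these fits. Over the whole table, genes lower at the FDR threshold numbered 50 with all 12 libraries, 18 without the pair and 97 without that replicate. Adjusted p-values for the 10 genes ran from 0.185 to 0.729 by edgeR. None of the 10 had every cmGch1 KO library below every WT library, which 0.802% of tested genes did. In bulk tissue, fewer cardiomyocytes and less of these RNAs per cardiomyocyte cannot be told apart. The summed level of 8 cardiomyocyte markers was 50929 to 55925 cpm in WT hearts and 45376 to 50670 cpm in cmGch1 KO. The ranges did not overlap, so the exact two-sided permutation p is the smallest possible, 0.00216. The high-Xist pair, at 45376 and 46358 cpm, held the lowest knockout sum. These sums are TMM-scaled, and the ranges under another scaling are not given here. Of these markers 7 had a negative log2 fold change, with a median of −0.16 over the 8. Singly, 0 of the 8 had an unadjusted p under 0.05 by edgeR. The sum weighs each marker by its level, and Myh6 had the highest level (log2 fold change −0.18, adjusted p = 0.714 by edgeR). The part of this shift in the levels of the 10 genes was not tested.

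**Figure D1:**
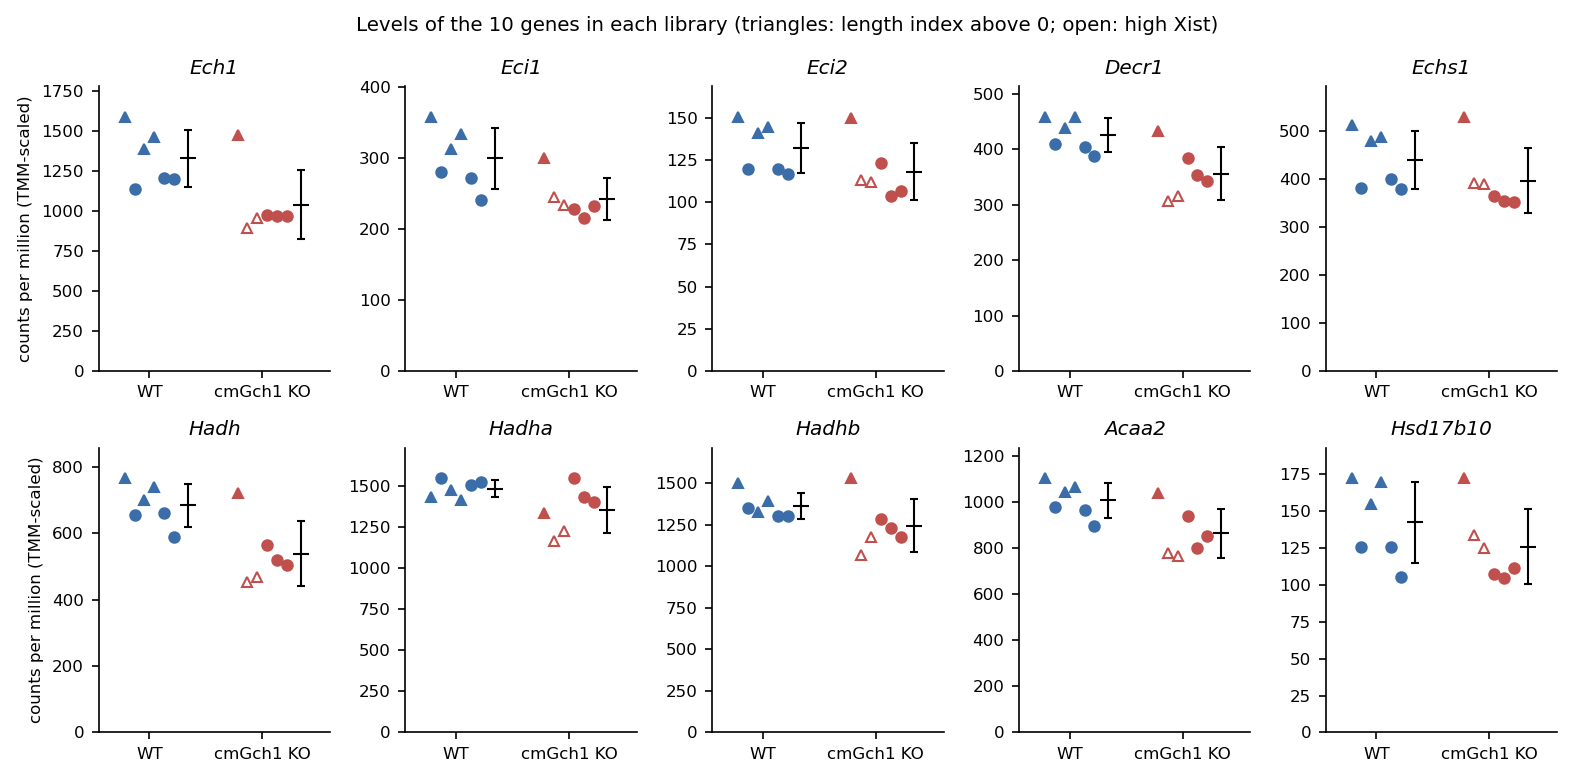
Levels of the 10 genes in TMM-scaled cpm (axes from 0) in the 6 WT (blue) and 6 cmGch1 KO (red) libraries, in replicate order. Triangles mark libraries with a length index above 0, open symbols the high-Xist pair, and black bars the mean ± SD; cmGch1 KO replicate 1 is the highest knockout library in 9 of the 10 panels.

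Of the 4 enzymes for unsaturated acids, Ech1 and Eci1 had the most negative log2 fold changes. Ech1 (ENSMUSG00000053898, chr7:28825217-28832247, + strand, GRCm38) encodes a dienoyl-CoA isomerase that brings a pair of double bonds into the arrangement the reductase accepts. In WT its lowest, median and highest levels were 1137, 1296 and 1591 cpm, and in cmGch1 KO they were 894, 969.6 and 1477 cpm. The knockout libraries other than replicate 1 all lay below the lowest WT library, and replicate 1 stood within the WT range. This gave a log2 fold change of −0.35 (SE 0.13, 95% interval −0.62 to −0.09), with an adjusted p of 0.247 by edgeR and an exact permutation p of 0.0433 for this gene alone. Without cmGch1 KO replicate 1 it was −0.48 (adjusted p = 0.0151 by edgeR), and without the high-Xist pair −0.27 (adjusted p = 0.765).

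Eci1 (ENSMUSG00000024132, chr17:24426641-24439348, + strand) encodes an enoyl-CoA isomerase that shifts a double bond into the place where the hydratase can act. Its lowest, median and highest levels were 240.6, 296.8 and 358.9 cpm in WT hearts and 215.7, 233.1 and 299.8 cpm in cmGch1 KO. Of the knockout libraries 4 lay below the lowest WT library, and replicate 1 was again the highest. For Eci1 the log2 fold change was −0.31 (SE 0.10, 95% interval −0.53 to −0.08, adjusted p = 0.219 by edgeR, exact permutation p = 0.0303). It was −0.29 without the high-Xist pair, which for this gene was not the lowest of its group (adjusted p = 0.607).

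Eci2 (ENSMUSG00000021417, chr13:34977748-35027096, − strand) encodes a related isomerase that is also found in peroxisomes. It was the least abundant of the 10 per transcript length, at 117, 130.5 and 150.8 cpm in WT (lowest, median, highest) and 103.8, 112.6 and 150.2 cpm in cmGch1 KO. The groups overlapped, although 4 knockout libraries were below the lowest WT library. Its log2 fold change was −0.16 (SE 0.10, 95% interval −0.37 to 0.05, adjusted p = 0.604 by edgeR), and −0.24 without cmGch1 KO replicate 1 (adjusted p = 0.156). The coding sequence of Eci2 is 91.8% identical to that of Eci3 over 891 bases, and Eci3 had 4 counts in all 12 libraries together.

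Decr1 (ENSMUSG00000028223, chr4:15917240-15945507, − strand) encodes the mitochondrial dienoyl-CoA reductase, which acts on the product of Ech1 or on dienes formed by dehydrogenation. Its levels were 387.1, 424.4 and 459.2 cpm in WT hearts and 306.5, 348.8 and 433.8 cpm in cmGch1 KO. Again 5 knockout libraries lay below the lowest WT library, the high-Xist pair lowest at 306.5 and 315.9 cpm. For Decr1 the log2 fold change was −0.26 (SE 0.09, 95% interval −0.44 to −0.07, adjusted p = 0.218 by edgeR, exact permutation p = 0.0152), and −0.17 without that pair (adjusted p = 0.749). Without cmGch1 KO replicate 1 it was −0.32 (adjusted p = 0.0452).

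Echs1 (ENSMUSG00000025465, chr7:140105710-140116476, − strand), the short-chain enoyl-CoA hydratase that also serves valine breakdown, was at 378.8, 438 and 510.6 cpm in WT hearts and 351.1, 375.4 and 529.1 cpm in cmGch1 KO. The highest of all 12 libraries was a knockout library, replicate 1, while 3 knockout libraries were below the lowest WT library. The log2 fold change was −0.15 (SE 0.11, 95% interval −0.39 to 0.10, adjusted p = 0.715 by edgeR). It was −0.25 without cmGch1 KO replicate 1 (adjusted p = 0.181) and −0.10 without WT replicate 1 (adjusted p = 0.822), the highest library of each group.

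Hadh (ENSMUSG00000027984, chr3:131233419-131272101, − strand) encodes the hydroxyacyl-CoA dehydrogenase for short and medium chains. It had the smallest p of the 10 genes. Its levels were 587.7, 680.3 and 766.6 cpm in WT hearts and 452.5, 511.6 and 721.4 cpm in cmGch1 KO, with 5 knockout libraries below the lowest WT library and replicate 1 inside the WT range. The log2 fold change was −0.35 (SE 0.11, 95% interval −0.58 to −0.11, adjusted p = 0.185 by edgeR, exact permutation p = 0.0152). The high-Xist pair, at 452.5 and 469.6 cpm, was the lowest, and without it the log2 fold change was −0.24 (adjusted p = 0.667). Without cmGch1 KO replicate 1 it was −0.45 (adjusted p = 0.0135).

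Hsd17b10 (ENSMUSG00000025260, chrX:152001845-152004442, + strand) encodes a dehydrogenase of isoleucine and short-chain acyl-CoA breakdown that is also a subunit of mitochondrial RNase P, the enzyme that frees the 5′ ends of mitochondrial transfer RNAs. Its levels were 105.5, 140.4 and 172.2 cpm in WT hearts and 104.9, 118 and 172.4 cpm in cmGch1 KO. Both the lowest and the highest library of each group were nearly level with those of the other. The log2 fold change was −0.18 (SE 0.14, 95% interval −0.49 to 0.13, adjusted p = 0.729 by edgeR), the widest interval of the 10. Although the gene lies on the X chromosome, the high-Xist pair was inside the range of the other libraries at 124.8 and 134 cpm, and the log2 fold change without it was −0.20. Without cmGch1 KO replicate 1 it was −0.29 (adjusted p = 0.272), and without WT replicate 1 it was −0.12 (adjusted p = 0.838). Its RNase P partners Trmt10c and Prorp (listed under the older symbol 1110008L16Rik) had log2 fold changes of −0.07 (adjusted p = 0.82 by edgeR) and 0.05 (adjusted p = 0.923).

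Long chains are handled by the mitochondrial trifunctional protein. Hadha (ENSMUSG00000025745, chr5:30118304-30155162, − strand) encodes its alpha subunit, with the hydratase and dehydrogenase, and Hadhb (ENSMUSG00000059447, chr5:30155248-30184593, + strand) its beta subunit, the long-chain thiolase. The genes lie head to head, with RefSeq start sites 273 bases apart. Hadha was at 1413, 1491 and 1546 cpm in WT hearts and 1163, 1369 and 1547 cpm in cmGch1 KO, and 4 knockout libraries were below the lowest WT library. Its log2 fold change was −0.13 (SE 0.07, 95% interval −0.29 to 0.02, adjusted p = 0.542 by edgeR). Hadhb was at 1300, 1340 and 1500 cpm in WT hearts and 1069, 1203 and 1531 cpm in cmGch1 KO, with 5 knockout libraries below the lowest WT library and replicate 1 above the highest. Its log2 fold change was also −0.13 (SE 0.08, 95% interval −0.31 to 0.05, adjusted p = 0.621 by edgeR). Without the high-Xist pair, which was lowest for Hadha and held the lowest library for Hadhb, the values were −0.05 and −0.06. Without cmGch1 KO replicate 1 they were −0.13 (adjusted p = 0.442) and −0.20 (adjusted p = 0.149).

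The counts of Hadhb carry a further uncertainty. Its coding sequence is 99.8% identical over 1425 bases to Gm13910, a processed pseudogene on chromosome 2 that held 142431 counts over the 12 libraries. Gm13910 stood at 403 to 462.9 cpm in WT hearts and 345.1 to 475.7 cpm in cmGch1 KO, which was 23.6% to 24.1% and 22.9% to 24.4% of the sum of both. With the counts of both added, the log2 fold change of Hadhb was −0.13 (adjusted p = 0.613 by edgeR). The level of Hadhb thus depends on where these reads were placed. Exons of Hadha share 75 bases with Garem2, those of Echs1 142 bases with Paox and those of Eci2 189 bases with the antisense gene Gm16984, all on the opposite strand, and the strand setting of the counting is not given in the sources used here.

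Acaa2 (ENSMUSG00000036880, chromosome 18) encodes the mitochondrial thiolase for medium and short chains. Its levels were 894.3, 1009 and 1103 cpm in WT hearts and 766.4, 826.7 and 1040 cpm in cmGch1 KO, with 4 knockout libraries below the lowest WT library. The log2 fold change was −0.22 (SE 0.09, 95% interval −0.41 to −0.04, adjusted p = 0.303 by edgeR, exact permutation p = 0.026). The high-Xist pair was lowest, at 766.4 and 777.4 cpm, and without it the log2 fold change was −0.15 (adjusted p = 0.85).

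**Figure D2:**
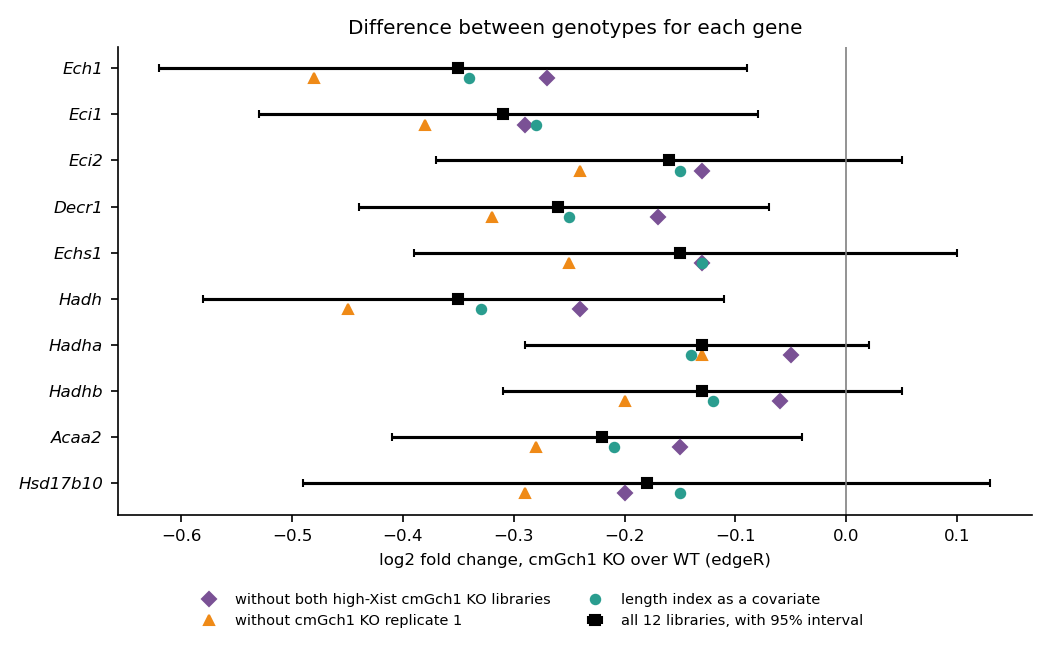
Log2 fold change of each gene, cmGch1 KO over WT, by edgeR. Squares with bars give the value and 95% interval from all 12 libraries; the other symbols leave out the high-Xist pair, leave out cmGch1 KO replicate 1, or add the length index as a covariate, and all lie left of 0.

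The region before the start sites of 8 of the 10 genes was taken from RefSeq (GRCm38.p6), from 250 bases before to 50 bases after the start. Shown are the windows of the 3 genes with the most negative log2 fold changes, Ech1, Eci1 and Hadh, and that of Hadhb, which shares 228 of its 300 bases with the window of Hadha. Capitals mark GC boxes (GGGCGG on either strand, so CCGCCC in the printed strand), the element bound by factors of the Sp family. The windows are chr7:28825088-28825387 (+) for Ech1, chr17:24426433-24426732 (+) for Eci1, chr3:131272052-131272351 (−) for Hadh and chr5:30155003-30155302 (+) for Hadhb, each printed 5′ to 3′ in the direction of its gene.
Ech1: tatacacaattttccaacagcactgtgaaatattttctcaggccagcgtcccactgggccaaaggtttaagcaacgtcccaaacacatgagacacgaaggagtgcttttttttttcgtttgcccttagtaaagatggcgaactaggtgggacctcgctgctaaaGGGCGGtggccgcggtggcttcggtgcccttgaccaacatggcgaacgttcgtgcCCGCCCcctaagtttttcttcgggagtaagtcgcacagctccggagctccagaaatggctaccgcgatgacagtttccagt
Eci1: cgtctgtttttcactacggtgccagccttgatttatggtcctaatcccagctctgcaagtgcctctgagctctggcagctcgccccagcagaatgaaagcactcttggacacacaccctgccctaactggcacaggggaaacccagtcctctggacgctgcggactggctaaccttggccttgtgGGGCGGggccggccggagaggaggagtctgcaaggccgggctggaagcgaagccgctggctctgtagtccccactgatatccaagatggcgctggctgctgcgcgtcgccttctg
Hadh: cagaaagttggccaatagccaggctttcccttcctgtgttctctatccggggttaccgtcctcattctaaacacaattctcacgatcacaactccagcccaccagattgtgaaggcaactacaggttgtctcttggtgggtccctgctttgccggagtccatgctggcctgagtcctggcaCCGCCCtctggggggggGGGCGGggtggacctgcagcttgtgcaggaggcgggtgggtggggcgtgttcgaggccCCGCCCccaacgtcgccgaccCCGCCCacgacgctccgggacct
Hadhb: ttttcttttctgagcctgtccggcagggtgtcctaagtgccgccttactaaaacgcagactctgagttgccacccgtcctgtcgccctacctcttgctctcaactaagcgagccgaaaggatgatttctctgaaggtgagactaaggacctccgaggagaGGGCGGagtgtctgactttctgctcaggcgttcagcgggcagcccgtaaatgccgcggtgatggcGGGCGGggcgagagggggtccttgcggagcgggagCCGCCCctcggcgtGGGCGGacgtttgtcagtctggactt
A GC box was present in 8 of the 8 windows, against 35.7% of all 32851 RefSeq promoter windows of this length. The only GC box in the Hadha window is the same site as the first in the Hadhb window, so the 8 windows are not independent. The windows of all genes were not matched to these 8 for base content or expression. The element of the oestrogen-related receptors, TNAAGGTCA searched on both strands, was in 0 of the 8 and in 1.28% of all windows. ATTGG, the reverse of the CCAAT box, was in 3 of the 8 (Hadh, Eci2 and Hsd17b10) on either strand and in 37.4% of all windows. The motifs do not overlap each other, and a match or its absence describes only these letters.

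Levels can be compared between the genes only per transcript length, here as RPKM (TMM-scaled cpm divided by the length of the principal transcript in kilobases). In WT, Ech1 was the most abundant at 1049 ± 141 RPKM, followed by Hadhb at 665 ± 37.1, Acaa2 at 664 ± 50.4, Hadh at 383 ± 36.0, Hadha at 369 ± 13.1, Echs1 at 282 ± 38.1, Eci1 at 264 ± 38.3, Hsd17b10 at 148 ± 28.3, Decr1 at 144 ± 10.2 and Eci2 at 75.7 ± 8.58 (mean ± SD, n = 6). The span from Ech1 to Eci2 was 13.9-fold. The ranges of 4 neighbouring pairs overlapped in WT: Hadhb with Acaa2, Hadh with Hadha, Echs1 with Eci1, and Hsd17b10 with Decr1. In cmGch1 KO the order was the same except that Hadha, at 336 ± 35.0 RPKM, stood above Hadh, at 301 ± 54.6. With Gm13910 added, Hadhb reached a mean of 873 RPKM in WT and 797 in cmGch1 KO, which widened its lead over Hadha, the other subunit of the same enzyme. On these annotated lengths, the levels of both subunits were unequal in WT, although their cpm values were close. The principal transcript of Hadha is 4017 bases long and that of Hadhb 2048, and which transcripts were present was not measured.

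Library by library, the 10 genes moved largely together. WT replicate 1 was the highest WT library for 8 of them and WT replicate 6 the lowest for 8, while cmGch1 KO replicate 1 was the highest knockout library for 9 and replicate 2 the lowest for 5. After centring within genotype, Pearson's r between pairs of the 10 genes over the 12 libraries had a median of 0.81 and ran from −0.54 to 0.98, with 40 of 45 pairs above 0. These correlations are a description, since all points share the libraries and their depth. The median r of a gene with the other members was 0.69 to 0.87, except for Hadha, where it was −0.09. Hadha and Hadhb had r = 0.28 (permutation p = 0.568) and Spearman's rho = 0.16 (permutation p = 0.681), and r was −0.18 without the 2 libraries farthest from the median of Hadha (cmGch1 KO replicates 2 and 4). The sign thus turned with those 2 libraries, and the pair ranked 38 among the 45.

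The length index moved with these patterns. Among WT libraries, the mean of the 3 with an index above 0 exceeded that of the 3 below it by 0.48 for Hsd17b10, 0.35 for Echs1, 0.34 for Eci1, 0.33 for Ech1 and 0.29 for Eci2 (log2 cpm). The same difference was 0.21 for Hadh, 0.18 for Acaa2, 0.17 for Decr1, 0.09 for Hadhb and −0.08 for Hadha, the gene with the longest transcript of the 10. Genotype was balanced over this split, with 3 WT and 3 cmGch1 KO libraries on each side, although both high-Xist libraries fell on the positive side. All 10 genes had a lower cmGch1 KO mean on either side. Where the index was below 0 and no library had high Xist, the differences ran from −0.06 for Hadha through −0.23 for Eci1 and −0.26 for Hadh to −0.28 for Ech1. There, Ech1 was at 1137 to 1205 cpm in WT hearts and 967.8 to 975.7 cpm in cmGch1 KO, and Hadh at 587.7 to 660.5 and 504.7 to 564.3 cpm. In this class 6 of the 10 genes (Ech1, Eci1, Decr1, Echs1, Hadh and Hadhb) had every knockout library below every WT library, which 8.47% of tested genes did. Where the index was above 0, 4 of the 10 did (Eci1, Decr1, Hadha and Acaa2), against 8.05% of tested genes, and the differences ran from −0.17 to −0.46. With 3 libraries against 3, an exact two-sided permutation test cannot go below p = 0.10.

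**Figure D3:**
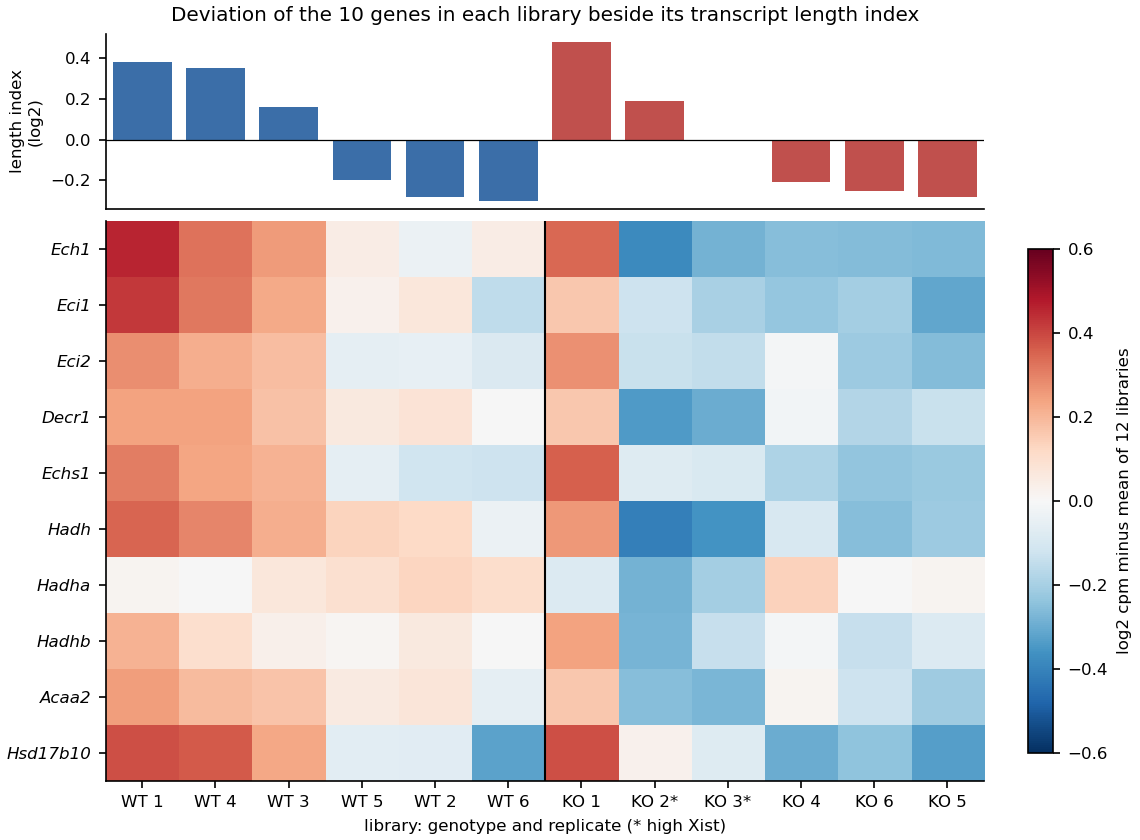
Deviation of each gene's log2 cpm from its mean over the 12 libraries (colour, log2 units), with libraries ordered by genotype and then by the length index shown as bars above. Red cells gather at WT replicates 1, 4 and 3 and at cmGch1 KO replicate 1; the row of Hadha departs from the others.

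With the length index added to the edgeR model as a covariate, a fit chosen after the data were seen, 3 of the 10 genes were lower at the FDR threshold, where 2.81% of tested genes were. They were Eci1 (log2 fold change −0.28, adjusted p = 0.00343), Ech1 (−0.34, adjusted p = 0.0204) and Hadh (−0.33, adjusted p = 0.0327). These 3 also passed when the high-Xist pair was left out of that fit, at −0.25, −0.23 and −0.21 (adjusted p = 0.0206, 0.0216 and 0.044), against 0.989% of tested genes. Because the index was computed from the same libraries, which contain these genes, its p-values treat an estimated covariate as known. Leaving out cmGch1 KO replicate 1, with the largest index, gave 3 of the 10 at the threshold (Ech1, Decr1 and Hadh), against 0.864% of tested genes. This adds no separate support, because that replicate was the highest knockout library for 9 of the 10 genes. Smaller p-values without it follow in part from the values tested. With the index, the log2 fold changes of the 10 genes ran from −0.34 to −0.12.

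Ratios of counts within a library need no scaling between libraries. For 6 pairs of related enzymes the mean log2 ratio was compared between genotypes by an exact two-sided permutation test, and none passed after Benjamini-Hochberg adjustment over the 6. Eci1 over Eci2, the enoyl-CoA isomerases, was 1.18 ± 0.08 in WT and 1.04 ± 0.09 in cmGch1 KO (mean ± SD, n = 6 each), a difference of −0.14 (SE 0.05, exact p = 0.0152, adjusted p = 0.0909). Acaa2 over Hadhb, the medium- and long-chain thiolases, differed by −0.09 (SE 0.04, exact p = 0.0541, adjusted p = 0.162). Hadh over Hadha, the dehydrogenases for shorter and longer chains, differed by −0.22 (SE 0.12, exact p = 0.0931, adjusted p = 0.186), with cmGch1 KO replicate 1 at −0.89 and the other 5 knockout libraries between −1.48 and −1.36. Without that library the differences were −0.31 for Hadh over Hadha (exact p = 0.00649, unadjusted) and −0.15 for Ech1 over Decr1 (exact p = 0.039, unadjusted). That library opposed the difference most on Hadh over Hadha, so a smaller p without it follows in part from the values tested. Leaving out any other single library gave exact p from 0.0606 to 0.175 for Hadh over Hadha and from 0.104 to 0.374 for Ech1 over Decr1. Ech1 over Decr1 differed by −0.10 (SE 0.07, exact p = 0.195, adjusted p = 0.292) and Echs1 over Hadha by −0.01 (SE 0.16, exact p = 0.933, adjusted p = 0.981). Hadha over Hadhb was 0.12 ± 0.12 in WT and 0.12 ± 0.18 in cmGch1 KO (SE of the difference 0.09, exact p = 0.981, adjusted p = 0.981), and it was lowest in replicate 1 of both groups, at −0.07 and −0.20.

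**Figure D4:**
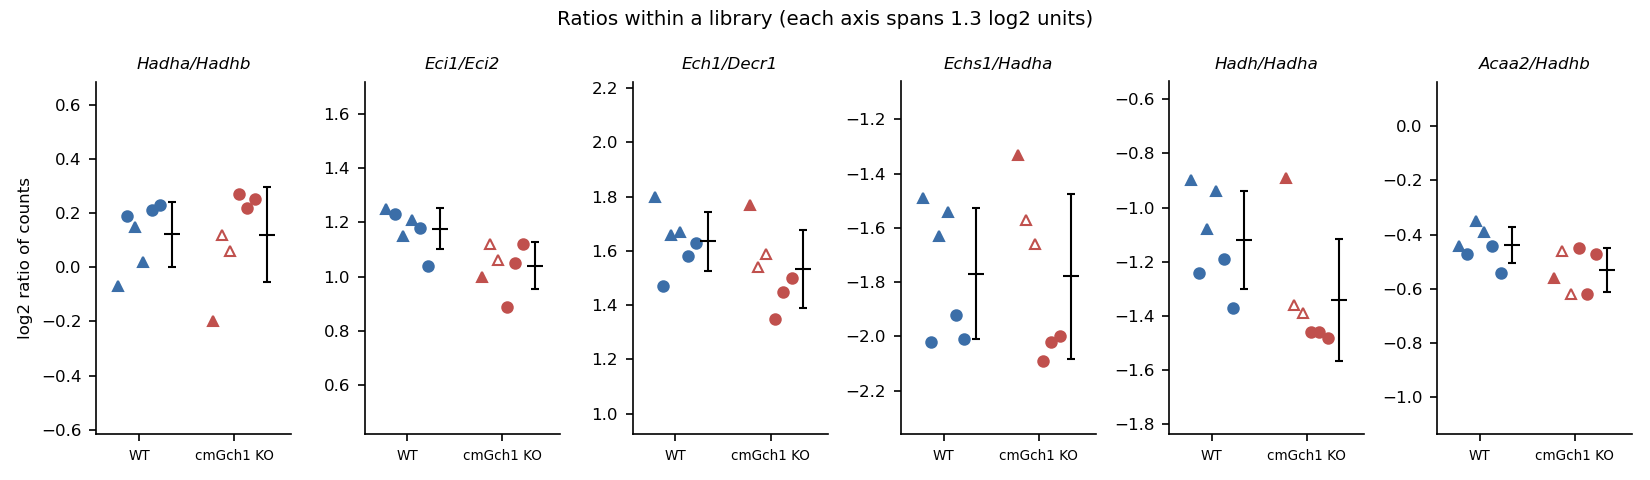
Log2 ratio of counts within each library for 6 pairs of the genes, with symbols as in the plot of levels (triangles, length index above 0; open, high Xist; black, mean ± SD). Every axis spans the same number of log2 units; the difference of means is −0.22 for Hadh/Hadha, −0.14 for Eci1/Eci2 and −0.00 for Hadha/Hadhb, and the groups overlap in each panel.

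Other genes of fatty acid oxidation were read from lists by step. Of 12 genes for entry into mitochondria and the first dehydrogenation, 0 passed the FDR threshold by edgeR, 7 had an unadjusted p under 0.05, all lower, and the median log2 fold change was −0.19. Over all tested genes, these shares were 0.445% lower at the FDR threshold and 4.51% lower at that unadjusted p, against which the counts of each list can be read. The smallest p-values belonged to Etfdh and Etfa, which pass electrons from the acyl-CoA dehydrogenases to the respiratory chain (−0.19 and −0.23), the short-chain dehydrogenase Acads (−0.32) and the carnitine palmitoyltransferase Cpt2 (−0.19), with adjusted p between 0.205 and 0.214. Of 14 peroxisomal genes 12 were tested, 0 passed, 1 had an unadjusted p under 0.05 (the transporter Abcd3, −0.18, adjusted p = 0.416) and the median was −0.05. The next smallest p-values there were those of the oxidase Acox3 (0.19), the trans-enoyl-CoA reductase Pecr (−0.19) and the bifunctional enzyme Ehhadh (−0.23), with adjusted p between 0.454 and 0.734. Of 8 further members of the hydratase and thiolase families 7 were tested, 0 passed and 2 had an unadjusted p under 0.05, both lower, with a median of −0.14. These 2 were Acat1, the mitochondrial acetoacetyl-CoA thiolase of ketone body and isoleucine metabolism (−0.27, adjusted p = 0.191), and Echdc2 (−0.20, adjusted p = 0.328). Auh and Hibch, of leucine and valine breakdown, stood at −0.16 (adjusted p = 0.632) and −0.10 (adjusted p = 0.685).

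Markers of other cell types were read beside these values. All 4 tested macrophage markers were higher at an unadjusted p under 0.05, with a median of 0.31. Of these 4, 0 passed the FDR threshold by edgeR. The summed level of all 5 listed macrophage markers was 69.3 to 81.3 cpm in WT hearts and 74.7 to 98.0 cpm in cmGch1 KO. The high-Xist pair stood at 84.7 and 98.0 cpm, so sex-linked expression and genotype are partly confounded here too. The share of all tested genes higher at that unadjusted p is not given here, for this list or the fibroblast one. The 6 fibroblast markers had positive log2 fold changes with a median of 0.11, 1 of them at an unadjusted p under 0.05. Of the 6 smooth muscle and pericyte markers, 4 had negative log2 fold changes and the median was −0.07. The smooth muscle actin gene Acta2 passed the FDR threshold (0.66, adjusted p = 0.00672 by edgeR), while Myh11 stood at −0.24 (adjusted p = 0.45) and Tagln at −0.40 (adjusted p = 0.491). The adipocyte markers Adipoq, Plin1 and Cidec stayed at or below 1.42 cpm in every library, as did Lep and Ucp1. Cidea, the only adipocyte marker tested, was at 22.04 to 37.06 cpm, with a log2 fold change of 0.24 (adjusted p = 0.286 by edgeR). The 3 tested atrial markers summed, with Bmp10, to 7.62 to 284 cpm in WT hearts and 45.1 to 187 cpm in cmGch1 KO, and the 5 erythroid markers had a median of −0.39. The part of these shifts in the levels of the 10 genes was not tested.

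The genes whose log2 cpm, centred within genotype, most resembled that of a member over the 12 libraries differed between members. For Hadha they were the aspartate-glutamate carrier Slc25a12 (r = 0.95), Trim24 (0.95) and Ttc38 (0.94). For Hadhb they were its pseudogene Gm13910 (0.97), the carnitine octanoyltransferase Crot (0.94) and the transporter Abcb10 (0.93). Echs1 was nearest to the proteasome subunit Psmb1, Bod1 and Commd9, and Hsd17b10 to Coq2, Tpd52l2 and the proteasome subunit Psma2, all at r = 0.99. Genes near Eci1 included Tmem222 (0.99) and the mitochondrial deacetylase Sirt3 (0.98). Ech1 was nearest to BC004004 (0.97), Cmbl (0.96) and Tmem159 (0.96), and Hadh to Cmbl (0.97), the squalene synthase Fdft1 (0.96) and Osgepl1 (0.95). These are descriptions over shared libraries, which include the length index as a common axis.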

How the data were processed

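Total RNA from left ventricle of 6 WT and 6 cmGch1 KO mice was sequenced. Per the paper's methods, the authors made paired-end dUTP libraries and counted reads with HISAT2, Picard and featureCounts; the submitters' processing notes name HISAT2, SAMtools and GRCm38. The annotation and strand setting of the counting are not given in the sources used here. The authors deposited raw counts per Ensembl gene (26921 rows) and normalized values on a log2-like scale. P-values measure the spread between these libraries.

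Counts were analysed with edgeR 4.0.16 in R 4.3.3 after a minimum of cpm over 3, met in 6 or more libraries (11225 genes). The fit used TMM, a quasi-likelihood model of genotype alone and Benjamini-Hochberg adjusted p-values over all tested genes (FDR 0.05). It was also run on simulated counts, drawn independently for each gene with a genotype effect alone. Those counts held no axis shared between libraries, such as the length index, so they cannot show how the p-values behave with one. Single genes were also compared by an exact two-sided permutation test over all 924 splits (smallest possible p 0.00216). Ratios used a prior count of 2, and correlations 100000 permutations within genotype. DESeq2 1.42.0 and limma 3.58.1 served as alternatives. With 0 counts, up to 0.151 cpm remains possible in the shallowest library (counting error only). Counts of libraries of 1 genotype differed beyond sampling noise in all 30 pairs.

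Symbols, positions and principal transcript lengths came from GENCODE M21 on GRCm38 (98.7% of identifiers found), and near-identical copies from BLAST 2.17.0 (85% identity over at least 100 bases). Named genes were the 10 members, Gch1, sex-linked genes, up to 4 genes of smallest p per list, the 3 nearest genes of 7 members (1 of them is not reported here), and overlapping or near-identical genes; the markers named singly were named after their values were seen. The members and lists were chosen with earlier results of these data known, and the length index was added after the data were seen.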

Additional observations from a re-analysis of the deposited data

Results flagged for a closer look

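In 4 of 32 sets of 6 libraries (the 10 levels and 6 ratios in each genotype), 1 library stood farther from the rest than Dixon's test allows, and chance marks about 1 in 20 such sets. In all of them the library was cmGch1 KO replicate 1, as the highest of its group. Ech1, the dienoyl-CoA isomerase, was at 1477 cpm there and at 894 to 975.7 cpm in the other 5 knockout libraries. Eci1, the enoyl-CoA isomerase, was at 299.8 cpm against 215.7 to 245.1 cpm. Echs1, the short-chain hydratase, was at 529.1 cpm against 351.1 to 391.2 cpm. The log2 ratio of Hadh to Hadha was −0.89 against −1.48 to −1.36. The same library had the highest length index of all 12 (0.48), the lowest Gch1 level (3.92 cpm) and 21.3% of its counts from mitochondrial genes, inside the range of the other libraries without high Xist. The part of the length index in these values was not tested.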

How the results depend on the processing

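Under 25 alternatives, all 250 fold changes of the 10 genes stayed below 0, and 11 of them passed the FDR threshold. The count of members at that threshold was 0 except for 3 with the length index as a covariate, 3 with the index and without the high-Xist pair, 2 with a replicate block (Ech1 and Hadh) and 0 to 3 when 1 library was left out (3 without cmGch1 KO replicate 1). The count at an unadjusted p under 0.05, 5 in the main analysis, was 2 with sex-linked expression as a covariate, 2 without the high-Xist pair, 9 with the index, and 5 to 9 with 1 library left out. Of all tested genes, 4.51% were lower at that p in the main analysis. That share is not given here for the alternatives, so their counts cannot be read as particular to the members. Other fatty acid oxidation genes at the FDR threshold, 0 in the main analysis, numbered 1 by DESeq2, 1 with the replicate block, 5 with the index, 3 with the index and without the high-Xist pair, and 0 to 2 with 1 library left out. Genes called over the whole table, 76 higher and 50 lower, became 299 and 315 with the index, 135 and 111 with the index and without the pair, 218 and 155 by DESeq2, 20 and 18 without the pair, and 40 and 24 with the sex-linked covariate, and 45 to 116 and 30 to 97 with 1 library left out. Scaling by library size alone gave 116 higher and 36 lower, moved the median of all genes to 0.07 and that of the members to −0.13. Replicate numbers were not taken as pairs, since the labels name nothing they share and not every same-numbered pair correlated above 0.1. The values were 0.68, −0.09, −0.08, −0.13, 0.40 and 0.51, and 5 of 12 libraries correlated best with the same number. With the block, 112 genes of the whole table were higher and 76 lower. Causes of these changes were not tested. The high-Xist alternatives have fewer knockout libraries.

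The ratio Hadha/Hadhb, near 0, was 0.01 without the high-Xist pair and with 1 library left out lay between −0.04 and 0.06, and Echs1/Hadha between −0.10 and 0.05. Eci1/Eci2 had p = 0.0625 in the paired exact permutation test with the replicate block, at −0.14, as had Hadh/Hadha, at −0.22. Leaving out 1 library gave −0.15 to −0.06 for Ech1/Decr1 and −0.31 to −0.18 for Hadh/Hadha. Without cmGch1 KO replicate 1 the exact permutation p was 0.039 for Ech1/Decr1 and 0.00649 for Hadh/Hadha. For Acaa2/Hadhb, leaving out 1 library gave −0.11 to −0.07, with exact permutation p between 0.0346 and 0.123. Acaa2/Hadhb with Gm13910 added to Hadhb was −0.09 (exact permutation p = 0.0498). The correlation of Hadha with Hadhb was −0.55 without the high-Xist pair and −0.10 by library size alone, and between −0.11 and 0.49 with 1 library left out, alternatives added after the data were seen, as were those with the index and Gm13910.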
